A study of Mus musculus with 48 samples.

Results

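The Period genes Per1, Per2 and Per3 and the cryptochrome genes Cry1 and Cry2 encode the repressors of the mammalian circadian clock, and their transcripts were followed in the brains of mice that carry human PER3 sequence in 1 of these 5 genes. Members were all array probes whose RefSeq accession belonged to one of the 5 genes. This gave 8 of 41174 probes (5 of 18883 named genes): 1 each for Per1 and Per3 and 2 each for Per2, Cry1 and Cry2. All 8 were well above background on 48 of 48 arrays, none was saturated, and all 8 therefore passed the filter on dim probes. The mice were homozygous knock-ins with human PER3 exon 18, holding 5 repeats (Per3 5/5, labelled Boxhill) or 4 repeats (Per3 4/4, labelled Coach), in place of the mouse exon, or were wild type (WT), with 8 mice per genotype. Per the study's methods, the exon was exchanged by Cre-Lox recombination through a ubiquitously expressed Cre, on a C57BL/6 background, so that every tissue carried the exchanged exon, and WT mice came from the same conditional line. All 24 mice, WT included, had been kept awake for 12 h of the light phase before the brain was taken, and frontal cortex and hypothalamus of each mouse were hybridised to 1 array each. No rested mouse was measured, so the values describe genotypes and tissues at 1 time point after sleep loss.

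In the clock, CLOCK and BMAL1 bind E-boxes in the Per and Cry genes and switch them on. PER and CRY proteins then assemble, enter the nucleus and block CLOCK and BMAL1, which turns off their own genes until the proteins are degraded. CRY1 and CRY2 are the stronger repressors, PER1 and PER2 carry them to the nucleus and set the pace of the loop, and PER3 is dispensable for the rhythm itself. In the forebrain, Per1 and Per2 also respond to time awake and to glucocorticoids, and their transcripts are known to rise during sleep deprivation.

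The promoters are shown because the 5 genes are driven by a common set of clock elements. RefSeq starts (GRCm38.p6) were found for 4 of the 5 genes, with 2 starts for Per1, and the 250 bases before a start were searched on both strands for the E-box (CACGTG), an E-box variant (CACGTT, or AACGTG on the other strand), the D-box (TTATGTAA, and TTACGTAA), which PAR bZIP factors such as DBP bind, and the cAMP response element (TGACGTCA). These motifs do not contain one another. Capitals mark the matches, and each line is written 5′ to 3′ on the strand of the gene.
Per1, chr11:69098699-69098948, plus strand: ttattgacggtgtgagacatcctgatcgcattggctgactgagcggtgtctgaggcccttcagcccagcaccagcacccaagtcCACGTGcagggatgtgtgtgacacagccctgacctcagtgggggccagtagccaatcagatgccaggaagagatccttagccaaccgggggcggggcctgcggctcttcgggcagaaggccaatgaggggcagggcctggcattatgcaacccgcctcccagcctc
Per3, chr4:151044666-151044915, minus strand: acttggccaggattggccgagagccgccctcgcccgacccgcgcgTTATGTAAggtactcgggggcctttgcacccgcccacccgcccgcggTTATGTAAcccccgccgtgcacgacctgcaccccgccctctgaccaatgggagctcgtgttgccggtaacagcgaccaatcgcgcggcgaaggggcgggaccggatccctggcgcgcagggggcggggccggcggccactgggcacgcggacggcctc
Cry1, chr10:85185055-85185304, minus strand: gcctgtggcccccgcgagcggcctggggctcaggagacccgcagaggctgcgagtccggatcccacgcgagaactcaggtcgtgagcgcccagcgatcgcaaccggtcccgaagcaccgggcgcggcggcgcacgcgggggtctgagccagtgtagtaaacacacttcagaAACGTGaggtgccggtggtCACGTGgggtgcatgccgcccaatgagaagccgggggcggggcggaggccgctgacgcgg
Cry2, chr2:92434070-92434319, minus strand: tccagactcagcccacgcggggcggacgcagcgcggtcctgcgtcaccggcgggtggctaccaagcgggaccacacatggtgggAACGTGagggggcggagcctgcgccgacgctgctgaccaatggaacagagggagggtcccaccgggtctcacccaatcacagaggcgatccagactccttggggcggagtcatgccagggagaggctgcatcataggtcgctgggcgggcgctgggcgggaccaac
The Per1 line, before its first start, held 1 E-box, 166 bases before the start. The Cry1 line held 1 E-box, 60 bases before the start, and 1 E-box variant 79 bases before it, and Cry2 held 1 E-box variant 166 bases before the start. The Per3 line held no E-box but 2 D-boxes, 205 and 158 bases before the start. Of all 32851 RefSeq windows of this length, 6.02% held the E-box, 3.85% the variant, 0.819% the D-box TTATGTAA, 0.113% TTACGTAA and 1.55% the cAMP response element. The window before the second Per1 start matched none of these motifs.

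Levels are given as log2 of the processed signal minus log2 of the 75th percentile of the array, so that 0 is the brightness of the 75th percentile and 1 unit is a 2-fold change. They were compared between groups for 1 probe at a time, since the brightness of different probes cannot be set against each other. The arrays lay on 12 slides and were scanned on 3 days. No WT mouse was scanned on day 1, when 4 mice of each knock-in were; 3 Per3 4/4 and 5 WT mice followed on day 2, and 4 Per3 5/5 mice, 1 Per3 4/4 mouse and 3 WT mice on day 3. The 75th percentile of the arrays ranged from 307 to 1884 intensity units, and its median was higher in WT (1300 in cortex and 1522 in hypothalamus) than in Per3 5/5 (894 and 1045) or Per3 4/4 (753 and 924). The tissues matched their labels. All 8 cortex markers, among them Slc17a7 and Tbr1, were lower in WT hypothalamus than in WT cortex, and 9 of 10 hypothalamus markers, among them Hcrt, Pmch and Avp, were higher there; Otp was well above background on 1 of 24 hypothalamus arrays. Pituitary markers summed to 745 times the 75th percentile in the hypothalamus of WT replicate 8 and to 43.8 in that of Per3 5/5 replicate 8, against 0.788 to 5.73 on the other hypothalamus arrays.

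**Figure D1:**
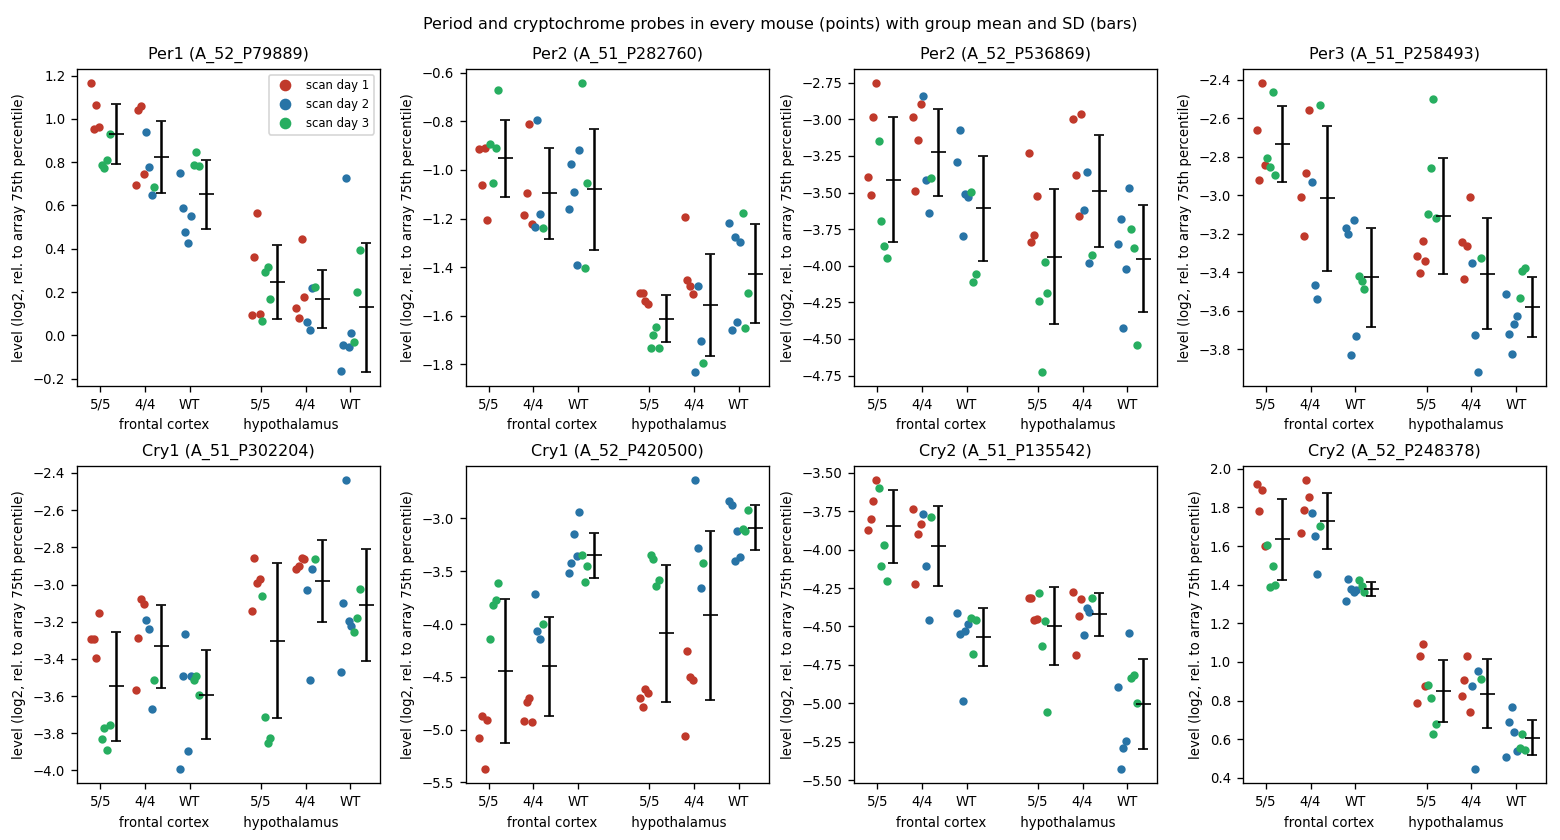
Log2 level of each of the 8 probes (relative to the 75th percentile of the array) in each mouse, by tissue and genotype; points are coloured by scan day and the bars give the group mean and SD (n = 8). The Cry2 probes have higher means in both knock-ins than in WT in each tissue, and the Cry1 probe A_52_P420500 sits lowest in knock-in mice of scan day 1.

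Per3 5/5 mice were first set against Per3 4/4 mice, which asks whether the number of human repeats alters the transcripts. By limma, 0 of 8 member probes were called in either tissue at an adjusted p under 0.05, against 0% of all probes tested in cortex and 0% in hypothalamus, also when scan day was a block (0% and 0%). Before adjustment, a p under 0.05 by limma was found for 4656 of all cortex probes and 4983 of all hypothalamus probes, and for 0 and 2 of the 8 members. The smallest adjusted p among the members was 0.325 in cortex and 0.27 in hypothalamus. The 95% intervals of the 8 differences, not adjusted for the number of probes, lay within -0.55 to 0.57 in cortex and within -0.85 to 0.56 in hypothalamus. The 2 hypothalamus probes were Per2 A_52_P536869, with a difference of -0.45 ± 0.19 (SE, 95% interval -0.85 to -0.05), and Per3, with 0.30 ± 0.13 (0.04 to 0.56). The adjusted p was 0.273 and 0.27 by limma. With scan day as a block the differences were -0.37 and 0.15. Among the mice of scan day 1 alone, 4 of each knock-in, they were -0.34 and -0.09, so that Per3 changed sign.

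The comparisons with WT ask what the human exon alters whatever its repeat number; they share the WT mice and are not independent of each other. In cortex, 5 of 8 member probes were called between Per3 5/5 and WT, against 12.4% of all probes tested, and 4 of 8 between Per3 4/4 and WT, against 22.5%. In hypothalamus, 4 of 8 were called between Per3 5/5 and WT, against 18.8%, and 1 of 8 between Per3 4/4 and WT, against 15.1%. The median difference over the 8 probes was 0.23 and 0.31 in cortex, where that over all probes was 0.06 and 0.02, and 0.06 and 0.15 in hypothalamus, where it was 0.03 and 0.02 (Per3 5/5 and Per3 4/4 in turn). The calls were Cry2 upwards, Per3 upwards, Per1 upwards and 1 Cry1 probe downwards. Of the 14 calls in these 4 comparisons, 5 were also made with scan day as a block and all 14 kept their sign. All 14 also kept their sign among the mice of 1 shared scan day, which are part of the same mice. This was day 3 for Per3 5/5 and day 2 for Per3 4/4, with 3 to 5 mice per genotype. The 1 Per3 4/4 mouse of day 3 was left out. On these days alone 0 of 32 values were called by limma. Of all probes, 0.00337% and 0.552% were called in cortex and 0.00325% and 0.0163% in hypothalamus (5/5 and 4/4 in turn). An unadjusted p under 0.05 was found for 4 and 3 of the 8 members in cortex and 2 and 1 in hypothalamus, against 17.3%, 22.8%, 17.8% and 8.94% of all probes.

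**Figure D2:**
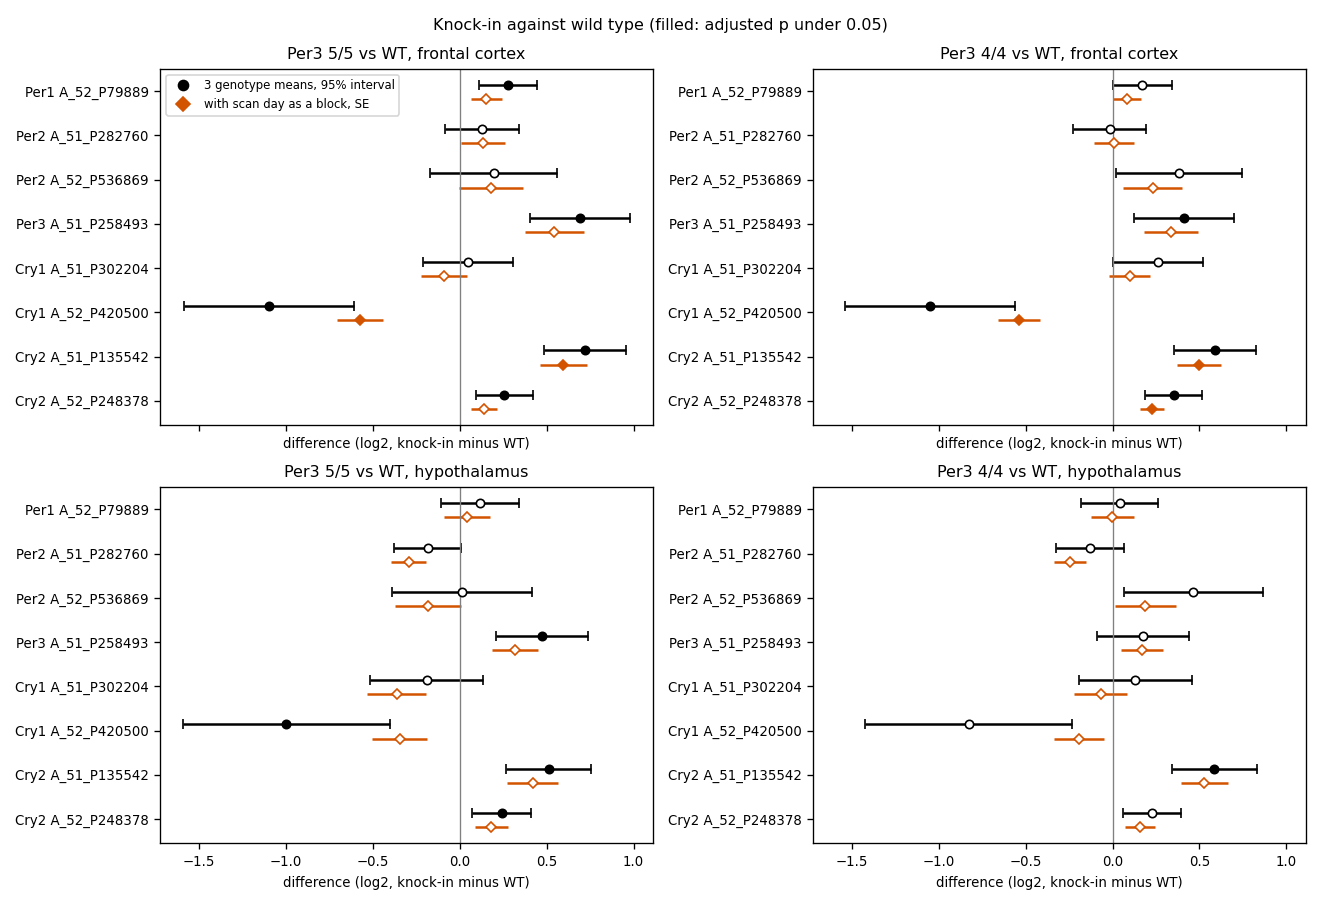
Log2 difference of each member probe between knock-in and WT mice, by tissue; circles give the fit of the 3 genotype means with the 95% interval, diamonds the fit with scan day as a block with its SE, and filled symbols an adjusted p under 0.05. With the block, filled diamonds remain at Cry1 A_52_P420500 and Cry2 in cortex, and none in hypothalamus.

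Per3, the gene that carries the human exon, was read by probe A_51_P258493. The files give no probe sequence, so it is not known whether the probe lies in the exchanged exon, and the probe is no check of the genotype. The cortex levels ran from -2.92 to -2.42 (median -2.83) in the 5/5 mice, from -3.54 to -2.53 (median -2.97) in the 4/4 mice and from -3.83 to -3.13 (median -3.43) in WT. All 8 Per3 5/5 mice and 5 of 8 Per3 4/4 mice thus lay above every WT mouse. In hypothalamus it ran from -3.40 to -2.50 (median -3.18), from -3.92 to -3.01 (median -3.34) and from -3.82 to -3.38 (median -3.58), with 7 of 8 and 5 of 8 mice above every WT mouse and the lowest Per3 4/4 mouse below them. In cortex the level rose 1.62-fold in the 5/5 mice and 1.33-fold in the 4/4 mice (limma adjusted p 0.00546 and 0.0382). In hypothalamus it rose 1.39-fold in the 5/5 mice, and the ratio in the 4/4 mice was 1.13 (limma adjusted p 0.0147 and 0.349). With scan day as a block none of these was called, at 0.54 and 0.34 in cortex and 0.32 and 0.17 in hypothalamus (limma adjusted p 0.0839, 0.175, 0.156 and 0.445). Among the mice of scan day 3, Per3 5/5 exceeded WT by 0.69 in cortex and by 0.54 in hypothalamus (adjusted p 0.0762 and 0.232 by limma, 4 mice against 3). On day 2 Per3 4/4 exceeded WT by 0.10 and by 0.01 (0.839 and 0.99 by limma, 3 against 5). Of those 3 mice, replicates 6 and 7, on 1 slide, had the lowest 4/4 levels. Their intensities were 29.4 and 37.2 in cortex and 23.2 and 33.3 in hypothalamus. The 1 Per3 4/4 mouse of day 3 stood at -2.53 in cortex and -3.32 in hypothalamus. WT mice of that day ran from -3.49 to -3.42 and from -3.53 to -3.38. Before scaling, the median cortex intensity of the probe was 143 units in the 5/5 mice, 108 in the 4/4 mice and 120 in WT, so the raw order of Per3 4/4 and WT was the opposite of the scaled one, and the part of array brightness in the difference was not tested. The Per3 4/4 cortex call was lost without any 1 of Per3 4/4 replicates 1, 3, 4, 5 and 8 and WT replicates 3, 5, 6, 7 and 8 (adjusted p of up to 0.084 by limma).

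Cry2, which blocks CLOCK and BMAL1 together with the PER proteins, moved in the same direction at both of its probes. Cortex levels of probe A_51_P135542 were -4.20 to -3.55 (median -3.84) in the 5/5 mice, -4.46 to -3.74 (median -3.87) in the 4/4 mice and -4.98 to -4.41 (median -4.51) in WT. The Per3 5/5 and WT mice did not overlap, and 7 of 8 Per3 4/4 mice lay above every WT mouse. The level rose by 0.72 ± 0.11 (SE) in Per3 5/5, which is 1.65-fold, and by 0.59 ± 0.11 in Per3 4/4 (limma adjusted p 0.00251 and 0.00218). In hypothalamus it ran from -5.06 to -4.28 (median -4.45), from -4.69 to -4.28 (median -4.39) and from -5.43 to -4.54 (median -4.95), and rose by 0.51 and 0.59 in turn (limma adjusted p 0.00657 and 0.00722), with 6 of 8 mice of each knock-in above every WT mouse. This was the only member probe called in all 4 comparisons with WT. It was also dim, with intensities of 14.8 to 79.8 units over all arrays. Before scaling, its hypothalamus medians were 48.3, 46.0 and 47.5 (5/5, 4/4 and WT), and the part of array brightness in the scaled rise was not tested. Among the mice of scan day 3 alone, Per3 5/5 exceeded WT by 0.56 in cortex and 0.28 in hypothalamus (limma adjusted p 0.146 and 0.445). On day 2 alone, Per3 4/4 exceeded WT by 0.48 and 0.63 (0.174 and 0.55 by limma).

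The brighter Cry2 probe, A_52_P248378, changed less. Its cortex levels were 1.39 to 1.92 (median 1.60) in the 5/5 mice, 1.46 to 1.94 (median 1.74) in the 4/4 mice and 1.31 to 1.43 (median 1.37) in WT. The WT mice lay close together (SD 0.04, against 0.21 and 0.15 in the knock-ins), and all 8 Per3 4/4 mice and 6 of 8 Per3 5/5 mice lay above them. In Per3 5/5 cortex the mean was 1.80 on scan day 1, which held no WT mouse, and 1.47 on day 3. The level rose 1.19-fold in the 5/5 and 1.28-fold in the 4/4 mice (limma adjusted p 0.0374 and 0.00457). In hypothalamus the levels were 0.63 to 1.09 (median 0.85), 0.45 to 1.03 (median 0.89) and 0.51 to 0.77 (median 0.59), so that the lowest Per3 4/4 mouse lay below all WT mice. The level rose 1.18-fold in the 5/5 mice (limma adjusted p 0.041), while the ratio of 1.17 in the 4/4 mice was not called (0.0581). The Per3 5/5 cortex call was lost without any 1 of Per3 5/5 replicates 1 to 5 and WT replicates 1, 3, 4, 5, 7 and 8 (adjusted p of up to 0.0861 by limma), and the hypothalamus call without any 1 of Per3 5/5 replicates 2 to 5 and WT replicates 1, 4, 5, 6 and 8 (up to 0.0841). With scan day as a block, the cortex calls left were A_51_P135542 in both knock-ins (0.60 and 0.50, limma adjusted p 0.0432 and 0.0232) and A_52_P248378 in the 4/4 mice (0.23, limma adjusted p 0.0452). In that fit 0.986% and 7.72% of all cortex probes were called in Per3 5/5 and Per3 4/4, and 0 of the 8 members in hypothalamus, against 2.1% and 0.745% of all probes. Among the mice of day 3 alone, A_52_P248378 in Per3 5/5 exceeded WT by 0.08 in cortex and 0.17 in hypothalamus (limma adjusted p 0.752 and 0.418). On day 2 alone, it exceeded WT in Per3 4/4 by 0.26 and 0.13 (0.157 and 0.718 by limma). Before scaling, the median intensities of A_51_P135542 in cortex were 62.9, 51.6 and 55.6 and those of A_52_P248378 were 2707, 2722 and 3369 (5/5, 4/4 and WT). WT was thus the brightest group for A_52_P248378 before scaling and lay between the knock-ins for A_51_P135542, and the part of array brightness in the scaled differences was not tested.

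Cry1, the other cryptochrome, gave different results at its probes when mice of all scan days were used. Probe A_52_P420500 was lower in the knock-ins. In cortex its levels were -5.37 to -3.61 (median -4.50) in the 5/5 mice, -4.92 to -3.71 (median -4.42) in the 4/4 mice and -3.61 to -2.94 (median -3.39) in WT, and neither knock-in overlapped with WT. The level fell to 0.467 times that of WT in the 5/5 and to 0.482 times in the 4/4 mice (limma adjusted p 0.00773 and 0.00449). In hypothalamus its levels were -4.78 to -3.34 (median -4.13), -5.06 to -2.64 (median -3.96) and -3.40 to -2.84 (median -3.11), with 6 of 8 mice of each knock-in below every WT mouse and 1 Per3 4/4 mouse above them. There it fell to 0.501 times in the 5/5 mice and stood at 0.563 times in the 4/4 mice, which was not called (limma adjusted p 0.0205 and 0.0535). The median intensity before scaling was also lower in the knock-ins, at 37.8 and 30.9 in cortex against 123 in WT, and at 59.7 and 45.1 in hypothalamus against 203. Probe A_51_P302204 was not called in any comparison with WT, with differences of 0.05 and 0.26 in cortex and -0.19 and 0.13 in hypothalamus in Per3 5/5 and Per3 4/4. Among the mice of scan day 3, Per3 5/5 lay below WT at both probes, though neither was called. The differences were -0.28 and -0.37 in cortex and -0.46 and -0.44 in hypothalamus (A_51_P302204 first). On day 2, Per3 4/4 differed from WT by 0.26 and -0.70 in cortex and by -0.06 and -0.07 in hypothalamus, also not called.

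The low values of A_52_P420500 went with the day of the scan. In cortex the 8 knock-in mice of day 1 ran from -5.37 to -4.70 and the 8 of later days from -4.14 to -3.61, with no overlap and a difference of -1.03 between the means. In hypothalamus the day 1 mice ran from -5.06 to -4.25 and the later ones from -3.66 to -2.64, and the means differed by -1.27. On the same arrays A_51_P302204 went the other way, higher by 0.33 and 0.41 on day 1. The 75th percentile of the day 1 arrays ran from 693 to 1164 intensity units (median 921), against 307 to 1743 (median 1222) on day 2 and 843 to 1884 (median 1162) on day 3, so the median was lowest on day 1, and the part of brightness in the low values was not tested. No WT mouse was scanned on day 1, so genotype and day cannot be told apart for these 8 mice.

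Without the mice of day 1, a comparison added after the values had been seen, Cry1 A_52_P420500 was lower than in WT in cortex, with differences of -0.49 in the 5/5 and -0.63 in the 4/4 mice (limma adjusted p 0.0497 and 0.00735, 4 mice against 8 each), and in Per3 5/5 hypothalamus, with -0.40 (0.0478). With scan day as a block the differences were -0.57 and -0.54 (adjusted p 0.0432 and 0.0156 by limma). In cortex all knock-in mice of later days lay below every WT mouse, though the highest of them and the lowest WT mouse both stood at -3.61. In hypothalamus, where later knock-in mice reached -2.64 and overlapped with WT (-3.40 to -2.84), the blocked differences were -0.34 and -0.19 (adjusted p 0.201 and 0.479 by limma).

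**Figure D3:**
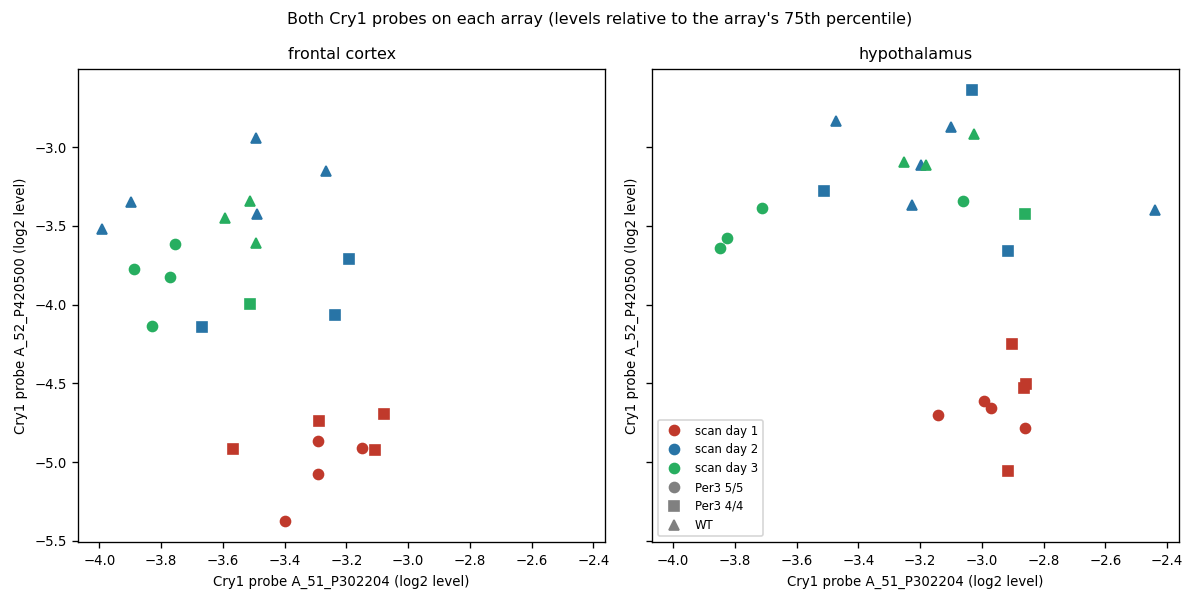
Log2 level of Cry1 probe A_52_P420500 against that of Cry1 probe A_51_P302204 on each array, by tissue; colour gives the scan day and shape the genotype. The 8 knock-in mice of scan day 1 form the lowest group on the vertical axis in both tissues (-5.37 to -4.70 in cortex and -5.06 to -4.25 in hypothalamus).

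Per1, a Period gene that responds rapidly to light and stress signals, was raised in 1 comparison. Cortex levels of probe A_52_P79889 were 0.78 to 1.16 (median 0.94) in the 5/5 mice, 0.65 to 1.06 (median 0.76) in the 4/4 mice and 0.43 to 0.85 (median 0.67) in WT, and 5 of 8 Per3 5/5 mice lay above every WT mouse. The level rose 1.21-fold in the 5/5 mice, and the ratio in the 4/4 mice was 1.13 (limma adjusted p 0.0304 and 0.131). The call was lost without any 1 of Per3 5/5 replicates 1, 3 and 4 and WT replicates 3, 4 and 5 (adjusted p of up to 0.0662 by limma). With scan day as a block the Per3 5/5 difference was 0.15 (0.319 by limma), and within scan day 3 it was 0.02 (0.947 by limma). In hypothalamus the groups overlapped, at 0.07 to 0.57 (median 0.23), 0.02 to 0.45 (median 0.15) and -0.16 to 0.73 (median -0.01), and the differences from WT were 0.12 and 0.04 (adjusted p 0.463 and 0.82 by limma). The highest hypothalamus value was that of WT replicate 3 (0.73), whose Cry1 probe A_51_P302204 was also the highest of its group (-2.44).

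Per2, whose forebrain transcript is known to rise with time awake, was not called at either probe in any comparison of genotypes. Probe A_51_P282760 had medians of -0.91, -1.18 and -1.07 in cortex and -1.60, -1.50 and -1.40 in hypothalamus in Per3 5/5, Per3 4/4 and WT, with group ranges that overlapped in both tissues. Its differences from WT lay within -0.23 to 0.34 in cortex and -0.38 to 0.06 in hypothalamus (95% intervals). Probe A_52_P536869 spread more widely, with an SD of 0.30 to 0.46 in the 6 groups, and its largest difference was 0.47 in Per3 4/4 hypothalamus (95% interval 0.06 to 0.87, adjusted p 0.0993 by limma).

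Frontal cortex and hypothalamus of the same mouse differed at most member probes. By limma on the within-mouse differences, 8 of 8 probes were called in Per3 5/5, 7 of 8 in Per3 4/4 and 6 of 8 in WT, against 58.6%, 59% and 59.5% of all probes tested. Per1, Per2 and Cry2 were lower in hypothalamus and Cry1 was higher there. In bulk tissue, fewer expressing cells and less RNA per cell cannot be told apart.

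**Figure D4:**
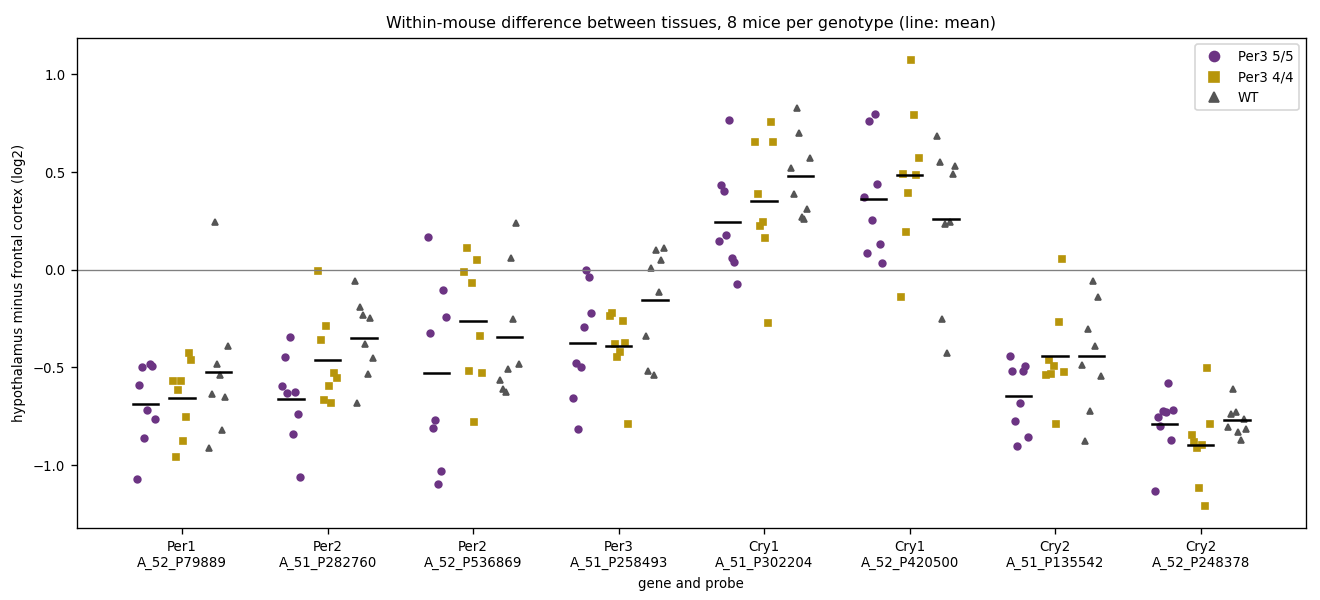
Hypothalamus minus frontal cortex of each mouse (log2) for the 8 member probes, by genotype; lines give the mean of 8 mice. Per2 A_51_P282760 and Cry2 A_52_P248378 lie below 0 in 24 of 24 mice, and the Cry1 probes lie above 0 in 22 and 21 of 24.

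Cry2 probe A_52_P248378 was lower in the hypothalamus of 24 of 24 mice, by 0.79 in Per3 5/5, 0.89 in Per3 4/4 and 0.77 in WT on the log2 scale (cortex over hypothalamus 1.72-fold, 1.86-fold and 1.71-fold, adjusted p 1.04e-10 or less by limma). The other Cry2 probe was lower in 23 of 24 mice, at 1.57-fold, 1.36-fold and 1.36-fold. Per1 was lower in 23 of 24 mice, at 1.61-fold, 1.57-fold and 1.44-fold. The exception was WT replicate 3, with a hypothalamus value higher by 0.25. Per2 probe A_51_P282760 was lower in 24 of 24 mice, at 1.58-fold, 1.38-fold and 1.27-fold, and probe A_52_P536869 in 19 of 24, where the difference was called in Per3 5/5 and WT (adjusted p 0.00125 and 0.0258 by limma) and not in Per3 4/4 (0.0898 by limma).

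Cry1 went in the opposite direction at both probes. Probe A_51_P302204 was higher in the hypothalamus of 22 of 24 mice, 1.18-fold in Per3 5/5, 1.27-fold in Per3 4/4 and 1.39-fold in WT (adjusted p 0.0362, 0.00358 and 0.000171 by limma). Probe A_52_P420500 was higher in 21 of 24 mice, 1.28-fold and 1.40-fold in the knock-ins (0.0149 and 0.0016 by limma), and the ratio in WT was 1.20 (0.0751 by limma). Per3 was lower in hypothalamus in all 8 mice of each knock-in (differences -0.38 and -0.39, adjusted p 0.000915 and 0.0006 by limma), whereas in WT it was lower in 4 mice and higher in 4 (-0.15, adjusted p 0.144 by limma). The WT difference of Per3 was called under median centring (-0.24, limma adjusted p 0.0184) and quantile normalization (-0.24, 0.0151), as was the Per3 4/4 difference of Per2 A_52_P536869 (-0.35 and -0.33, 0.00752 and 0.00738).

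The difference between tissues was itself compared between genotypes. By limma, 0 of 8 member probes were called in each of the 3 contrasts (5/5 against 4/4, 5/5 against WT and 4/4 against WT), against 0%, 0.00961% and 0.0032% of all probes tested. At an unadjusted p under 0.05 stood 1 member probe, Per2 A_51_P282760, whose hypothalamus difference was larger in Per3 5/5 than in WT by 0.31 (difference -0.31, unadjusted p 0.0107, adjusted p 0.791 by limma). For Per3 the difference between tissues in the knock-ins and in WT differed by -0.22 and -0.24 (adjusted p 0.791 and 0.925 by limma).

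Set in order over the 6 groups, the means of Per1, Per2 A_51_P282760 and Cry2 A_52_P248378 had all 3 cortex groups above all 3 hypothalamus groups, and for each of these probes the step from the lowest cortex group to the highest hypothalamus group (0.41, 0.33 and 0.53) exceeded the larger SD of the neighbours. Per1 had 1 further step beyond the SD, from Per3 4/4 cortex to WT cortex (0.17), and Cry2 A_52_P248378 had 2, from Per3 5/5 to WT in cortex (0.26) and from Per3 4/4 to WT in hypothalamus (0.23). Cry1 A_51_P302204 had the 3 hypothalamus groups first, in the order Per3 4/4, WT and Per3 5/5, with no neighbours farther apart than their SD. The order of Per3 was Per3 5/5 cortex, Per3 4/4 cortex, Per3 5/5 hypothalamus, Per3 4/4 hypothalamus, WT cortex and WT hypothalamus, and no neighbours differed by more than their SD. Cry2 A_51_P135542 was highest in the cortex of both knock-ins and lowest in WT hypothalamus, with WT cortex below the hypothalamus of both knock-ins, and its steps beyond the SD were those of 0.44 after Per3 4/4 cortex and after WT cortex. Cry1 A_52_P420500 was highest in WT hypothalamus and then WT cortex and lowest in the cortex of the knock-ins, and its 1 step beyond the SD was that between the WT tissues (0.26). On within-mouse differences that WT step was not called (adjusted p 0.0751 by limma). The next step, 0.57 from WT cortex to Per3 4/4 hypothalamus, lay within the SD of 0.80 of that knock-in, whose mice spanned 3 scan days. Such steps set means against the spread between mice and are not a test. Neighbours of Per2 A_52_P536869 did not differ beyond their SD.

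The transcripts most like a member were those whose correlation with its brightest probe was highest in the weaker of the tissues, over 24 arrays each and 29222 probes; these arrays share scan days, slides and genotypes. For Per3 they were Arhgef2 (r of 0.89 in cortex and 0.91 in hypothalamus), Pdpk1 (0.85 and 0.85) and Dync2h1 (0.84 and 0.86). For Cry2 they were Fgd1 (0.88 and 0.89), Rnf157 (0.91 and 0.88) and Ccser2 (0.93 and 0.87). For Cry1, by probe A_51_P302204, they were Commd1 (0.81 and 0.84), Eef1a1 (0.81 and 0.83) and Zfp706 (0.81 and 0.83), and for Per1 Mlxip (0.78 and 0.72), Dgkz (0.75 and 0.72) and B4galnt4 (0.77 and 0.72). Per2 had the loosest neighbours, Neo1 (0.56 and 0.61), Arid4a (0.57 and 0.51) and Ro60 (0.49 and 0.73). No other member stood among the 3 transcripts most like any member.

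The rest of the clock pathway was read by 37 of 38 listed genes, by 1 probe per gene. Of these, 0 were called in either tissue when the knock-ins were set against each other. Between Per3 5/5 and WT, 4 were higher and 0 lower in cortex, and 5 were higher and 8 lower in hypothalamus. Between Per3 4/4 and WT, 5 were higher and 7 lower in cortex, and 4 were higher and 8 lower in hypothalamus. The calls ran in both directions. The called values kept their sign under the other scalings, the other background correction and in the authors' own table (0 of 164 values flipped). Much of this count could not have come out otherwise. The authors' table is scaled as the levels here are. Median centring moves all values of a comparison by the same amount, which was smaller than any called value. Only quantile normalization, with or without the other background correction, could have changed a sign. Of the 37 genes, those called thus numbered 4 and 12 for cortex, then 13 and 12 for hypothalamus (5/5 before 4/4), where 12.4%, 22.5%, 18.8% and 15.1% of all probes were called. Of the 41 calls, 4 were also made when scan day was a block (cortex 1 and 2, hypothalamus 1 and 0), against 0.986%, 7.72%, 2.1% and 0.745% of all probes. The median difference from WT over the 4 comparisons lay between -0.07 and 0.05 for the activators and -0.20 and 0.05 for the other repressors. It lay between 0.08 and 0.17 for the D-box activators and -0.16 and -0.04 for the regulators of PER and CRY proteins. For the genes in the signal path that acts on Per1 it lay between -0.27 and 0.00. Over all probes it was 0.02 to 0.06.

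Among the activators, which drive Per and Cry through E-boxes, 4 of 4 were tested; Npas2 was higher in Per3 5/5 cortex (0.35) and Clock was lower in Per3 4/4 in cortex (-0.31) and hypothalamus (-0.44). Of 9 other repressors and nuclear receptors, the E-box repressor Bhlhe41 exceeded WT in all 4 comparisons (0.30 to 0.49), and Nr1d1, which represses Bmal1, was higher in Per3 4/4 cortex (0.42) and in the hypothalamus of both knock-ins (0.55 and 0.59). Its relative Nr1d2 fell short of WT in the 4/4 cortex (-0.23) and in both knock-in hypothalami (-0.32 and -0.33), the D-box repressor Nfil3 was lower in the hypothalamus of both (-0.41 and -0.36), and Ciart was lower in Per3 4/4 cortex (-0.75). Of the 3 D-box activators, Dbp was higher in Per3 4/4 cortex (0.29) and in the hypothalamus of both knock-ins (0.32 and 0.38), and Tef and Hlf were not called.

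Of 16 regulators of PER and CRY proteins, the phosphatase subunit Ppp1cb (-0.47, -0.48 and -0.48) and the AMPK subunit Prkaa1 (-0.31, -0.33 and -0.40) were lower in Per3 4/4 cortex and in the hypothalamus of both knock-ins. The F-box gene Fbxl21, whose product stabilises CRY proteins, was lower in the hypothalamus of both (-0.51 and -0.29). Gsk3b, a kinase of clock proteins, was higher in Per3 4/4 cortex (0.37) and Per3 5/5 hypothalamus (0.36), Btrc, which targets PER proteins, was higher in Per3 4/4 cortex (0.52) and hypothalamus (0.66), and its relative Fbxw11 was lower in the hypothalamus of both (-0.33 and -0.31). Wdr5 was higher in Per3 5/5 in cortex and hypothalamus (0.22 and 0.24), Usp7 was higher in Per3 5/5 cortex (0.29), Timeless was lower in Per3 4/4 cortex (-0.26) and Nono in Per3 5/5 hypothalamus (-0.25). The casein kinases Csnk1d, Csnk1e and Csnk1a1, which phosphorylate PER proteins, were not called at the 1 probe read for each. The study itself reports Csnk1d as higher in both knock-ins than in WT, in cortex and hypothalamus. Its calls could also come from a rank product, which was not run here. Of 6 genes in the signal path that acts on Per1, whether they raise or limit it, 5 were tested. Crem was lower in the hypothalamus of both knock-ins (-0.34 and -0.35) and the glucocorticoid receptor gene Nr3c1 in Per3 4/4 cortex (-0.27). All values are log2 differences from WT with adjusted p between 0.00217 and 0.0464 by limma. With scan day as a block the calls left were Bhlhe41 in the cortex of both knock-ins (0.47 and 0.30), Nr1d2 in Per3 4/4 cortex (-0.24) and Fbxl21 in Per3 5/5 hypothalamus (-0.43).

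Some markers of other cells and of the tissues themselves were also called against WT in both tissues. Of all probes tested, 12.4% and 22.5% were called in cortex and 18.8% and 15.1% in hypothalamus (5/5 and 4/4 in turn). Whether the markers were called more often than other probes was not tested. In cortex, Emx1 was higher in both knock-ins (0.49 and 0.54) and Tbr1 lower in Per3 4/4 (-0.42), out of 8 cortex markers whose sums ran from 46.1 to 65.7, from 50.5 to 57.4 and from 47.2 to 59.1 (5/5, 4/4 and WT). The hypothalamus markers Hcrt and Oxt were higher in Per3 5/5 cortex (0.64 and 0.59), with summed levels of all 10 no higher than 1.41, and the choroid plexus marker Folr1 was higher in the cortex of both knock-ins (0.43 and 0.33). In hypothalamus, Hcrt was higher in Per3 4/4 (0.70), Sim1 was lower in both knock-ins (-1.45 and -1.52), and the cortex markers Tbr1 and Cux2 were higher in Per3 5/5 (1.12 and 0.57). All 4 oligodendrocyte markers were higher in Per3 4/4 than in WT hypothalamus (log2 differences 0.27 to 0.72), and 1 of 4 in Per3 5/5. Their summed level was 159 to 207 times the 75th percentile in the 5/5 mice, 175 to 254 in the 4/4 mice and 130 to 197 in WT. In cortex none of the 4 was called and the sums overlapped, at 56.8 to 139, 80.2 to 137 and 65.9 to 143. Of 5 suprachiasmatic nucleus markers tested in hypothalamus, 3 were called in Per3 5/5 and 1 in Per3 4/4. In Per3 5/5, Six6 and Prokr2 were lower (-0.97 and -0.56) and Lhx1 was higher (0.40), and in Per3 4/4 Six6 was lower (-0.72). The sums of the 5 ran from 4.38 to 7.66, from 4.71 to 7.58 and from 5.19 to 9.21. These sums did not separate the tissues, with medians of 5.87, 5.49 and 6.43 in hypothalamus and 6.04, 5.59 and 6.09 in cortex. Vip was lower in WT hypothalamus than in WT cortex (-1.81). Of 5 striatum markers, Drd2 and Ppp1r1b were higher in the hypothalamus of both knock-ins (0.43 to 0.95), and the sums ran from 2.54 to 4.13, from 2.55 to 4.90 and from 2.09 to 4.21. Of 5 pituitary markers, Tshb was lower in Per3 5/5 (-3.07), and of 4 choroid plexus markers Ttr was (-1.73). The part of tissue make-up in the differences of the Period and cryptochrome probes was not tested.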

How the data were processed

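RNA of frontal cortex and hypothalamus of 24 mice was measured on 48 one-colour Agilent mouse arrays. The deposited scanner output (Feature Extraction 10.7.1.1) gives each spot's processed signal as an intensity, which per the file headers is background subtracted and not scaled between arrays, with raw median intensities and other quality calls. The authors' own table, also deposited, is in log2 units after their 75th percentile shift in GeneSpring; 99.97% of its values lay within 0.05 of the scanner-derived ones once each probe was centred per tissue, so it gives no differences between tissues.

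Levels were the log2 ratio of processed signal to the 75th percentile of the array, with outlier-flagged spots left out. A probe was tested if 6 or more of the 8 arrays of any group called it well above background (29715 in cortex, 30735 in hypothalamus, 31228 for both). Genotypes were compared within each tissue with limma 3.58.1 in R 4.3.3 (24 arrays, 3 genotype means, two-sided, Benjamini-Hochberg over all probes tested). Tissues were compared on within-mouse differences, since the labels tie both tissues to 1 mouse (the deviations of the tissues of a mouse correlated with r of 0.109 to 0.688). The alternatives were other scalings, filters and background correction, scan day, slide and replicate number as blocks, the methods' t-test and leaving out each mouse; the rank product of the methods was not run. The normexp alternative used the median in place of the mean spot signal. Fits were tested on simulated data.

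The genes were named through RefSeq accessions. Named were all member probes, the 3 transcripts most like each member, and the called genes of 5 pathway lists, each read by its tested probe with the highest mean level. Members, lists and alternatives were chosen with earlier results of these data known. Arrays give no counts, so precision is limited by their number.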

Additional observations from a re-analysis of the deposited data

Results flagged for a closer look

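Of 72 sets of 8 values examined (8 probes in 6 groups, and the within-mouse differences in 3 genotypes), 6 held a mouse that stood apart from the rest of its group by Dixon's test at the 95% level, where chance gives about 1 in 20. In hypothalamus, Cry1 probe A_51_P302204 was low in Per3 4/4 replicate 6 (-3.51) and high in WT replicate 3 (-2.44). Cry2 probe A_51_P135542 was low in the cortex of WT replicate 3 (-4.98) and in the hypothalamus of Per3 5/5 replicate 8 (-5.06), the array whose pituitary markers summed to 43.8 times the 75th percentile. The within-mouse difference of Per1 was 0.25 in WT replicate 3, the only mouse in which Per1 was higher in hypothalamus. The within-mouse difference of Per3 was -0.79 in Per3 4/4 replicate 8. WT replicate 3 accounts for 3 of the 6; its striatum markers summed to 16.96 in cortex, against 4.03 to 10.8 on the other cortex arrays, and its thalamus markers to 16.2 in hypothalamus, against 4.31 to 17.2 on the others, and their part in these values was not tested.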

How the results depend on the processing

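Among the 8 member probes, 5 were called in cortex and 4 in hypothalamus between Per3 5/5 and WT, and 4 and 1 between Per3 4/4 and WT. The Per3 5/5 cortex count became 3 with median centring, which shifted the median of all probes in that comparison by -0.113, 3 with normexp and 2 with scan day as a block. The Per3 4/4 cortex count became 1 with normexp. The Per3 5/5 hypothalamus count became 1 with normexp and 0 with the scan-day block. The Per3 4/4 hypothalamus count became 2 with median centring, with only these 2 genotypes in the fit and with the methods' t-test, 3 with quantile normalization and with a stricter filter, and 0 with the scan-day block. Without scan day 1, an alternative chosen after seeing the data, the counts were 3 and 2 for Per3 5/5 and 0 for Per3 4/4 hypothalamus. All 4 counts were 0 with slide as a fixed block, where 0 of all probes were called too. They were also 0 on the shared scan day compared (day 3 for Per3 5/5 and day 2 for Per3 4/4). With the scan-day block, 0.986% of all probes were called in Per3 5/5 cortex, and 2.1% and 0.745% in hypothalamus (5/5 and 4/4 in turn). For the other scalings, filters and tests the share over all probes is not given here. A change particular to the members can therefore not be told from one over the whole array, and the cause of these changes was not tested.

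With the replicate block, the Per3 4/4 hypothalamus count was 3; 21 of 48 pairs of mice with the same number correlated above 0.1, so the numbers were not taken as pairs, although knock-in replicates 1 to 4 shared 4 slides number for number and 6 of their 8 pairs correlated above 0.1 (-0.00274 to 0.518). With slide as a fixed block, Cry1 A_52_P420500 in Per3 5/5 hypothalamus changed sign (0.098), the only called value to do so. No slide held both a Per3 5/5 and a WT mouse, and Per3 4/4 met WT only on slides 4 and 6. That fit thus compared Per3 5/5 with WT only through Per3 4/4 mice. Its lack of calls and this sign cannot decide the differences. Leaving out 1 mouse gave 3 to 5 calls for Per3 5/5 cortex (3 without Per3 5/5 replicate 1, 3 or 4 or WT replicate 3, 4 or 5) and 1 to 3 for Per3 4/4 hypothalamus (3 without Per3 4/4 replicate 6, and 2 without Per3 4/4 replicate 5 or WT replicate 3). The counts between tissues stayed within 1.5 times of 8, 7 and 6 under every alternative run, and those between the knock-ins and for genotype by tissue stayed at 0. Between tissues, leaving out 1 mouse ended the Per3 5/5 calls of Cry1 A_51_P302204 (without replicate 2, 3 or 5) and Cry1 A_52_P420500 (3 or 5) and the WT call of Per2 A_52_P536869 (1, 2, 3, 4 or 8), and Cry1 A_52_P420500 was called in WT without WT replicate 3 or 5. Apart from the fits without a mouse, genotype values that were not called kept their sign in 458 of 494 cases. The dimmer probes have few intensity units over background, and the number of arrays limits precision.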
